A study of Mus musculus with 12 samples.

Results

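Inflammatory-response and mRNA-decay genes of the mouse kidney were followed in every animal after SK-124, an inhibitor of the salt-inducible kinases SIK2 and SIK3. They are the chemokine genes *Cxcl1*, *Cxcl2* and *Ccl2*, the NF-kB feedback genes *Nfkbia*, *Nfkbiz* and *Tnfaip3*, the adhesion gene *Icam1*, and the RNA-binding protein genes *Zfp36*, *Zfp36l1* and *Zfp36l2*. They were taken by name as 10 of the 55401 genes in the deposited tables, and all 10 were found with the same identifier version in the GENCODE M21 annotation. Male C57BL6 mice aged 8 weeks received 1 intraperitoneal injection of vehicle, a 15% solution of 2-hydroxypropyl-beta-cyclodextrin, or of SK-124 at 40 mg/kg. Whole-kidney mRNA was sequenced as 1 library per mouse, with 6 mice in each group, and no modified allele is named for either. The time of collection for these libraries was not given in the sources used here. The comparison asks how acute SIK inhibition changes the kidney transcriptome.

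NF-kB transcription factors are held in the cytoplasm by IkB proteins, and inflammatory signals such as TNF, IL-1 and bacterial products release them through the IKK complex. Their target genes include chemokines that call in neutrophils and monocytes, adhesion molecules on vessel walls, and inhibitors that end the response. Many of these short-lived transcripts carry AU-rich elements in their 3′ untranslated regions, where ZFP36 (tristetraprolin) and its paralogs bind and bring in the deadenylation machinery. *Zfp36* is itself an immediate-early gene and its own transcript carries such elements.

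The sequences that these proteins read are shown first, for the genes that hold them. *Cxcl1* (ENSMUSG00000029380.11) lies on the plus strand of chromosome 5 from 90891241 to 90893115 in GENCODE M21 (GRCm38), and *Cxcl2* lies downstream of it on the same strand, from 90903871 to 90905938. The RefSeq promoter table (GRCm38.p6), which covers 250 bases before to 50 bases after each start site, held 7 of the 10 genes. *Ccl2*, *Nfkbiz* and *Zfp36l2* were not matched there. A letter match to the kappaB consensus, searched on both strands, was found before the start sites of *Cxcl1*, *Cxcl2*, *Nfkbia* and *Tnfaip3*. In *Cxcl1* and *Cxcl2* it was found on each strand at positions that differ by 1 base, starting 71 and 97 bases before the start site. These windows are shown 5′ to 3′ on the gene's strand, with the matching letters in capitals:
*Cxcl1*, chr5:90891159-90891198, plus strand: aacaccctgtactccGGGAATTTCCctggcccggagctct
*Cxcl2*, chr5:90903787-90903826, plus strand: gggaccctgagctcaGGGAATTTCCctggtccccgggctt
*Nfkbia*, chr12:55492652-55492691, minus strand: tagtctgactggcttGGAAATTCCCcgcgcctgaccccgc
*Tnfaip3*, chr10:19015511-19015550, minus strand: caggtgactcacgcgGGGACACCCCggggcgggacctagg

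Such a match was present in 4.51% of the 32851 promoter windows in the table. *Tnfaip3* had a further match 12 bases before its start site, and its other listed promoter had none. No match was found in the windows of *Icam1*, *Zfp36* and *Zfp36l1*, which says only that these letters are not in those windows. SIK inhibition is known to free CRTC coactivators, which act with CREB at cAMP response elements, so the core TGACG was searched as well, on both strands. It occurred in *Cxcl1*, starting 215 and 194 bases before the start site, in *Tnfaip3*, and in 20.8% of all windows. The whole palindromic element was in none of the 7 genes and in 1.79% of all windows. A serum response element is a site through which immediate-early genes answer growth factors. Letters that match it were found in *Zfp36*, 58 bases before the start site listed there, and in 1.63% of all windows. Whether these letters act as such an element was not tested. In the 250 bases before the start site of *Cxcl1*, the capitals mark TGACG on the minus strand (read here as CGTCA) and the overlapping pair of kappaB matches:
*Cxcl1*, chr5:90890995-90891244, plus strand: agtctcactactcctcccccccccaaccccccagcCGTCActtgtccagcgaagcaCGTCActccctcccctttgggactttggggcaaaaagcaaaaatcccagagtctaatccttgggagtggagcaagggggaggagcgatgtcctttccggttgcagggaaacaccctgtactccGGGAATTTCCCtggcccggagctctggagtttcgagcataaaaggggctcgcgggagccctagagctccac

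The AU-rich heptamer TATTTAT, the core that ZFP36 proteins bind, was counted on the sense strand of each 3′ untranslated region, taken from the GENCODE M21 transcript with the longest coding sequence, with overlapping copies counted. It occurred 6 times in the 592 bases of *Cxcl1* and 7 times in the 734 bases of *Cxcl2*. *Zfp36*, *Zfp36l1* and *Zfp36l2* had 3 copies each, *Nfkbia*, *Tnfaip3* and *Icam1* had 2 each, and *Ccl2* and *Nfkbiz* had none. Thus 8 of the 10 genes had at least 2 copies, as did 9.33% of the 21037 genes searched. One site per gene is shown for the clustered copies of the chemokines and for 1 of the copies in each of *Nfkbia*, *Icam1* and *Zfp36*, with the heptamers in capitals:
*Cxcl1*, chr5:90892611-90892639, plus strand: attTATTTATgTATTTATTTATtccacaa
*Cxcl2*, chr5:90905340-90905368, plus strand: atgTATTTATTTATTTATtaattccattg
*Nfkbia*, chr12:55489608-55489636, minus strand: ggaccacgtttTATTTATtgtgcttttga
*Icam1*, chr9:21028341-21028369, plus strand: gttttaccagcTATTTATtgagtaccctg
*Zfp36*, chr7:28376951-28376979, minus strand: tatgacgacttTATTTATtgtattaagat

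The library totals were 19350134 to 19771802 expected counts with vehicle and 19244227 to 19530313 with SK-124. SK-124-treated mice 1 to 3 stood apart: their 10 most abundant genes took 44.4% to 46.8% of counts, against 38.6% to 40.2% in SK-124-treated mice 4 to 6 and 39.9% to 43.2% with vehicle. Values are given as TMM-normalized counts scaled to library size (CPM), which compare mice within a gene, or as the deposited TPM, which are also scaled to transcript length and compare genes. Of 14159 genes tested with edgeR's quasi-likelihood test, 24.4% were called at a Benjamini-Hochberg adjusted p (FDR) under 0.05, 10.8% higher and 13.5% lower with SK-124. The median log2 fold change of all of them was -0.01. Proximal tubule markers, which define the main cell type of the kidney cortex, summed to between 27129 and 37102 CPM with vehicle and to between 29116 and 37574 CPM with SK-124.

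SK-124 treatment was followed by higher expression of 7 of the 9 genes that could be tested and by lower expression of none. The shares over all genes tested were 10.8% higher and 13.5% lower. Among the 9, *Cxcl1*, *Zfp36* and *Nfkbia* rose most, with log2 fold changes of 2.35, 1.71 and 1.32. *Tnfaip3*, *Nfkbiz*, *Icam1* and *Zfp36l2* rose by less than 2-fold, *Ccl2* and *Zfp36l1* did not pass the test, and *Cxcl2* had too few counts to be tested. *Cxcl1* met the expression filter, 0.512 CPM in at least 6 mice, through the group where it was high (1 vehicle-treated and 6 SK-124-treated mice), so counts over the tested genes are a description. The median log2 fold change of the 9 was 0.76, and 3 rose with a log2 fold change above 1, as did 1.73% of all genes tested. In *Cxcl1*, *Nfkbia*, *Icam1* and *Zfp36* every SK-124-treated mouse was above every vehicle-treated mouse, which held for 6.32% of all genes tested, and in none was every SK-124-treated mouse below, as held for 6.65%. The same 7 genes were called with SK-124-treated mice 1 to 3 alone, and all of them except *Tnfaip3* (FDR = 0.0758, edgeR) with mice 4 to 6 alone.

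**Figure D1:**
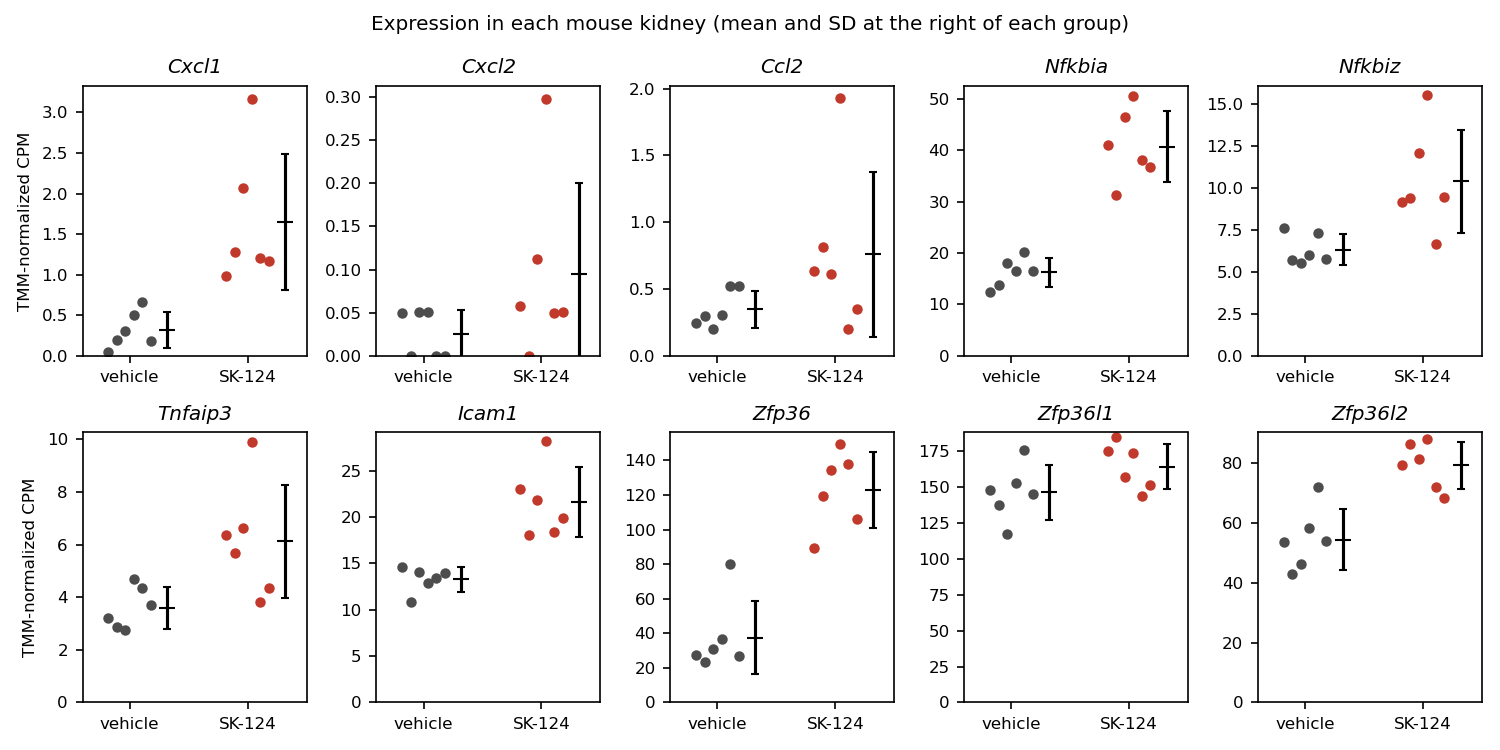
Each panel plots 1 gene, with TMM-normalized CPM on a linear axis from 0 and 1 point per mouse, in order of mouse number from left to right, for vehicle (grey) and SK-124 (red). The bar at the right of each group is the mean with its SD (n = 6). *Cxcl1*, *Nfkbia*, *Icam1* and *Zfp36* show no overlap between the groups, and *Zfp36* in vehicle-treated mouse 5 lies at 80.0 CPM, above the rest of its group.

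Of the 3 chemokine genes described, *Cxcl1* passed the test, *Ccl2* did not and *Cxcl2* was not tested. *Cxcl1* encodes a ligand of CXCR2 that draws neutrophils. Its level in the vehicle group ran from 0.0494 CPM through a median of 0.252 to 0.664 CPM, which is 1 to 14 reads. With SK-124 the lowest, median and highest levels were 0.984, 1.24 and 3.17 CPM, or 17 to 64 reads. The groups did not overlap, and SK-124-treated mouse 4 was the highest. The log2 fold change was 2.35 (SE 0.40, 95% interval 1.501 to 3.203, FDR = 0.000330, edgeR), and the exact two-sided permutation test on log2(CPM + 0.5) gave p = 0.00216, the smallest that 6 mice against 6 allow.

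*Cxcl2*, its neighbour on chromosome 5 and also a CXCR2 ligand, was barely detected. Vehicle-treated mice had 0 or 1 read, and SK-124-treated mice had 1, 0, 2, 6, 1 and 1 reads in the order of their numbers. SK-124-treated mouse 4 was the highest here too, at 0.297 CPM, and the groups overlapped (exact permutation p = 0.0758). With no filter on low counts the log2 fold change of *Cxcl2* was 1.74 (FDR = 0.197, edgeR), so a change was not detectable at this depth. The rise of *Cxcl1* on the log2(CPM + 0.5) scale exceeded that of *Cxcl2* by 1.19 (SE 0.21, exact permutation p = 0.00216, 0.00260 after adjustment over 6 pairs of genes), a scale on which a gene with almost no reads can hardly move.

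*Ccl2* encodes the main monocyte chemoattractant, the ligand of CCR2. It lies on chromosome 11 from 82035571 to 82037453 on the plus strand, where *Gm17268* overlaps it on the other strand, and whether the counting used strand was not given in the sources used here. *Ccl2* was at 0.204, 0.300 and 0.522 CPM (lowest, median and highest) with vehicle and at 0.200, 0.627 and 1.93 CPM with SK-124. The lowest and the highest of the 12 mice were both treated with SK-124, being mice 5 and 4. With SK-124 it had a log2 fold change of 1.11 (SE 0.45, FDR = 0.0888, edgeR). It was 0.54 (FDR = 0.320) without SK-124-treated mouse 4 and 1.31 (FDR = 0.0305) without SK-124-treated mouse 5, so 1 library decides whether *Ccl2* is called.

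The NF-kB feedback genes rose together but not equally. *Nfkbia* encodes IkB-alpha, which binds NF-kB dimers, returns them to the cytoplasm, and is resynthesized within minutes of their activation. It lies on the minus strand of chromosome 12 from 55489410 to 55492647. The level of *Nfkbia* was 12.5, 16.5 and 20.3 CPM (lowest, median and highest) with vehicle. In SK-124-treated mice the corresponding values were 31.3, 39.5 and 50.5 CPM. No mouse of either group fell within the range of the other, with a gap of 20.3 to 31.3 CPM between them. The log2 fold change of *Nfkbia* was 1.32 (SE 0.12, 95% interval 1.07 to 1.58, FDR = 3.62e-07, edgeR).

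*Nfkbiz* encodes the atypical nuclear IkB-zeta, which acts at chromatin to switch on secondary response genes, and lies on the minus strand of chromosome 16 from 55811375 to 55838899. It was at 5.52, 5.89 and 7.65 CPM with vehicle and at 6.66, 9.44 and 15.6 CPM with SK-124. The highest control was exceeded by 5 of 6 treated mice, with mouse 5 inside the vehicle range and mouse 4 farthest above it. Its log2 fold change was 0.72 (SE 0.16, FDR = 0.00326, edgeR). On the TPM scale, where the median gene lay at -0.11, limma with log2(TPM + 1) gave *Nfkbiz* 0.35 (FDR = 0.0652).

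*Tnfaip3* encodes A20, a ubiquitin-editing enzyme that shuts off signaling above the IKK complex, and lies on the minus strand of chromosome 10 from 19000910 to 19015657. Its level was 2.76, 3.45 and 4.69 CPM with vehicle and 3.81, 6.02 and 9.90 CPM with SK-124. SK-124-treated mice 5 and 6 lay within the vehicle range and the other 4 above it. With a log2 fold change of 0.76 (SE 0.20, FDR = 0.0104, edgeR), *Tnfaip3* passed the test. *Nfkbia* rose by 0.64 more than *Tnfaip3* (SE 0.18, exact permutation p = 0.00649, 0.00649 after adjustment) and by 0.66 more than *Nfkbiz* (SE 0.18, p = 0.00216, exact permutation, 0.00260 after adjustment) on the log2(CPM + 0.5) scale.

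*Icam1* encodes the endothelial and epithelial ligand of the leukocyte integrins LFA-1 and Mac-1. It lies on the plus strand of chromosome 9 from 21015985 to 21028817 and is overlapped by the antisense gene *Gm47079*. *Icam1* was at 10.8, 13.7 and 14.7 CPM with vehicle and at 18.1, 20.9 and 28.3 CPM with SK-124. All 6 treated mice were above all controls, although the rise was modest. Its log2 fold change was 0.70 (SE 0.10, 95% interval 0.48 to 0.92, FDR = 7.60e-05, edgeR). *Icam1* is made by endothelium among other cells, and of the 9 endothelial markers measured here none was called higher and 3 were called lower, among them *Kdr* (-0.85) and *Ehd3* (-0.87). *Cdh5* (0.29), *Flt1* (0.12) and *Pecam1* (0.07) had log2 fold changes above 0 and were not called, and without SK-124-treated mouse 3 the number called higher was 1, *Cdh5*. The summed level of the endothelial markers was 338 to 448 CPM with vehicle and 272 to 425 CPM with SK-124. In whole-kidney RNA, more cells of a type and more RNA per cell cannot be told apart.

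**Figure D2:**
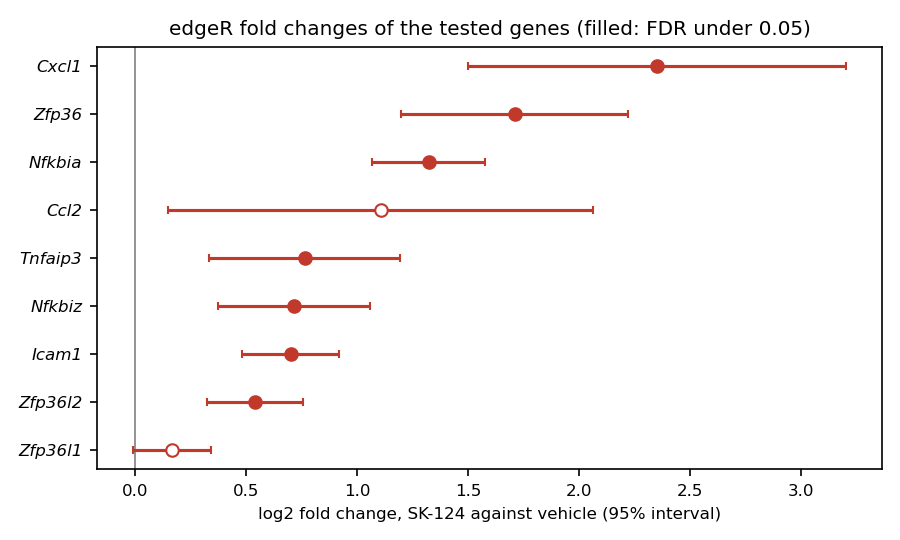
The log2 fold change of SK-124 against vehicle from edgeR is plotted for the 9 tested genes, with its 95% interval as a bar; filled points have an FDR under 0.05. The intervals of *Ccl2* (0.15 to 2.06) and *Cxcl1* (1.501 to 3.203) are the widest, and that of *Zfp36l1* (-0.01 to 0.35) is close to 0 at both ends.

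The members of the ZFP36 family changed unequally. *Zfp36l1* led in both groups on the TPM scale, with a median of 48.6 TPM in vehicle-treated and 48.1 TPM in SK-124-treated mice. In the vehicle group *Zfp36l2* (15.1 TPM), *Nfkbia* (11.4 TPM) and *Zfp36* (10.6 TPM) followed with ranges that overlapped from each to the next. *Icam1* came next at 5.39 TPM and *Nfkbiz* at 1.64 TPM, and *Tnfaip3* (0.785 TPM), *Ccl2* (0.385 TPM), *Cxcl1* (0.265 TPM) and *Cxcl2* (0.025 TPM) again overlapped from each to the next. With SK-124, *Zfp36* moved from rank 4 to rank 2, at a median of 40.6 TPM, and *Zfp36l2* from rank 2 to rank 4, at 18.9 TPM, below *Nfkbia* at 25.9 TPM.

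*Zfp36* (ENSMUSG00000044786.6) lies on the minus strand of chromosome 7 from 28376784 to 28380253, with the antisense gene *Gm44710* overlapping it. In vehicle-treated mice 1 to 6 it was at 27.6, 23.2, 31.1, 36.4, 80.0 and 26.7 CPM. SK-124-treated mice 1 to 6 had 89.5, 119, 134, 149, 138 and 106 CPM. The groups did not overlap, but vehicle-treated mouse 5 stood far above its group and close to the lowest treated mouse. The log2 fold change of *Zfp36* was 1.71 (SE 0.24, FDR = 4.91e-05, edgeR), and 2.08 (FDR = 1.08e-08) without vehicle-treated mouse 5. *Fos*, another immediate-early gene with AU-rich elements, was higher in that mouse, at 27.1 CPM, than in the other vehicle-treated mice (0.496 to 2.12 CPM) or in the SK-124-treated mice (2.43 to 12.1 CPM). For *Fos* that library decided the result: the log2 fold change was 0.13 (FDR = 0.925, edgeR) with it and 2.67 (FDR = 0.000362) without it.

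*Zfp36l2* (chromosome 17, 84183931 to 84187947) and *Zfp36l1* (chromosome 12, 80107754 to 80113013) lie on the minus strand and are also overlapped by genes on the other strand, *AC132455.1* and *Gm26669*. *Zfp36l2* had lowest, median and highest levels of 42.8, 53.7 and 71.8 CPM with vehicle. With SK-124 they were 68.3, 80.2 and 87.9 CPM, and only vehicle-treated mouse 5 reached into the treated range. For *Zfp36l2* the log2 fold change was 0.54 (SE 0.10, FDR = 0.000820, edgeR). *Zfp36l1* was at 118, 147 and 176 CPM with vehicle and at 144, 166 and 185 CPM with SK-124, so that most mice of the groups overlapped. Its log2 fold change of 0.17 (SE 0.08, 95% interval -0.01 to 0.35) did not pass the test (FDR = 0.165, edgeR). Without vehicle-treated mouse 5 it was 0.23 (FDR = 0.0486), and with library totals in place of TMM it was 0.05, where the median of all genes was -0.12.

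The differences within the family were larger than the spread between mice. *Zfp36* rose by 1.64 more than *Zfp36l1* on the log2(CPM + 0.5) scale (SE 0.25) and by 1.26 more than *Zfp36l2* (SE 0.21), and *Zfp36l1* rose by 0.38 less than *Zfp36l2* (difference -0.38, SE 0.06). Each of these differences had an exact permutation p = 0.00216 and 0.00260 after adjustment. Of the summed TPM of the 3 paralogs, *Zfp36* made up 13.0% to 27.6% with vehicle (median 15.4%) and 29.4% to 43.7% with SK-124 (median 38.2%). The share of *Zfp36l1* was 54.0% to 69.0% with vehicle (median 64.5%) and 39.7% to 51.2% with SK-124 (median 44.0%), again without overlap, whereas that of *Zfp36l2* was 17.97% to 20.49% and 16.6% to 19.4%. *Zfp36l1* thus took a smaller share with SK-124 while its own TPM hardly differed between the groups. Its log2 fold change was 0.02 with limma on log2(TPM + 1), a scale on which the median gene lay at -0.11. With TMM-normalized counts, where the median gene lay at -0.01, *Zfp36l1* had 0.17 and was not called (FDR = 0.165, edgeR). The level TPM therefore does not show that *Zfp36l1* was unchanged.

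**Figure D3:**
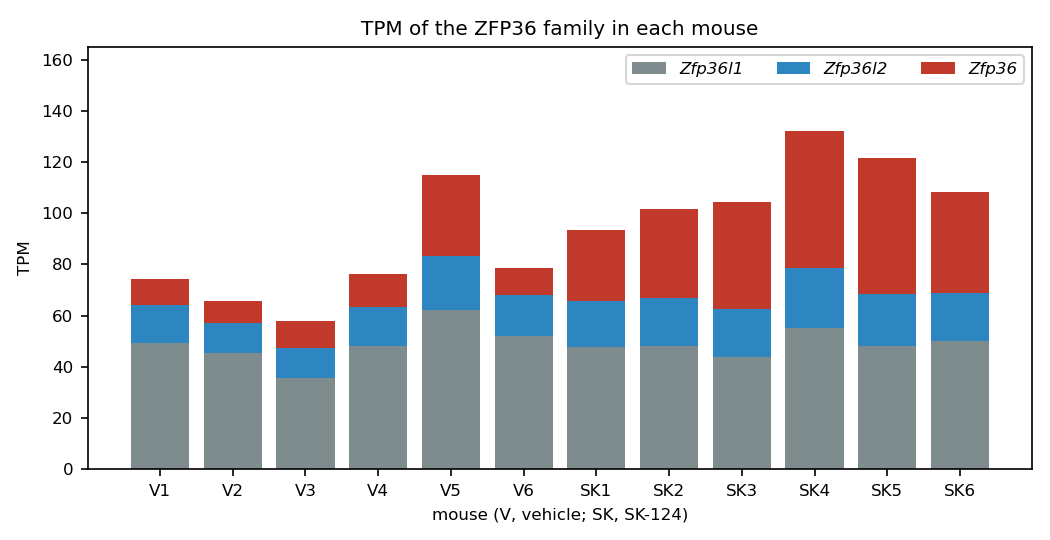
Stacked bars give the TPM of *Zfp36l1* (grey), *Zfp36l2* (blue) and *Zfp36* (red) in each vehicle-treated (V) and SK-124-treated (SK) mouse, on an axis from 0. The red part is a median of 10.6 TPM with vehicle, reaches 31.7 TPM in vehicle-treated mouse 5, and is a median of 40.6 TPM with SK-124, while the grey part has medians of 48.6 and 48.1 TPM.

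The genes tended to be high in the same animals. SK-124-treated mouse 4 had the highest level of its group for 9 of the 10 genes, the exception being *Zfp36l1*. Vehicle-treated mouse 5 had the highest level of its group for 6 of the 10. How often these mice led their groups over all genes tested was not counted, so this may not be particular to the genes described. Of 10 neutrophil markers, 3 had enough counts to be tested. *S100a8* and *S100a9*, the calprotectin subunits stored in neutrophils, rose with log2 fold changes of 3.10 and 3.16, and the other tested marker of the 10, *Csf3r* (0.57), did not pass. *S100a8* and *S100a9* met the expression filter through the SK-124 group (1 and 0 vehicle-treated against 6 SK-124-treated mice), and DESeq2, which also tested sparser genes, called 5 of the list higher. The summed level of the list was 0.642 to 2.51 CPM with vehicle and 3.66 to 8.51 CPM with SK-124, highest in the same mice 5 and 4. These mice also led their groups in the summed NF-kB subunits, upstream cytokines and receptors, other chemokines, endothelial markers and AU-rich ZFP36 targets. *Mpo* was listed at 0 in every mouse. *Cxcr2*, the receptor of CXCL1 and CXCL2, was under the expression filter at 0 to 0.285 CPM with vehicle and 0.280 to 0.818 CPM with SK-124. Without SK-124-treated mouse 4 the log2 fold change of *Cxcl1* was 2.05 (FDR = 0.000614, edgeR) and the same number of the 10 genes, 7, was called. The part of neutrophils in the change of any gene was not tested.

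**Figure D4:**
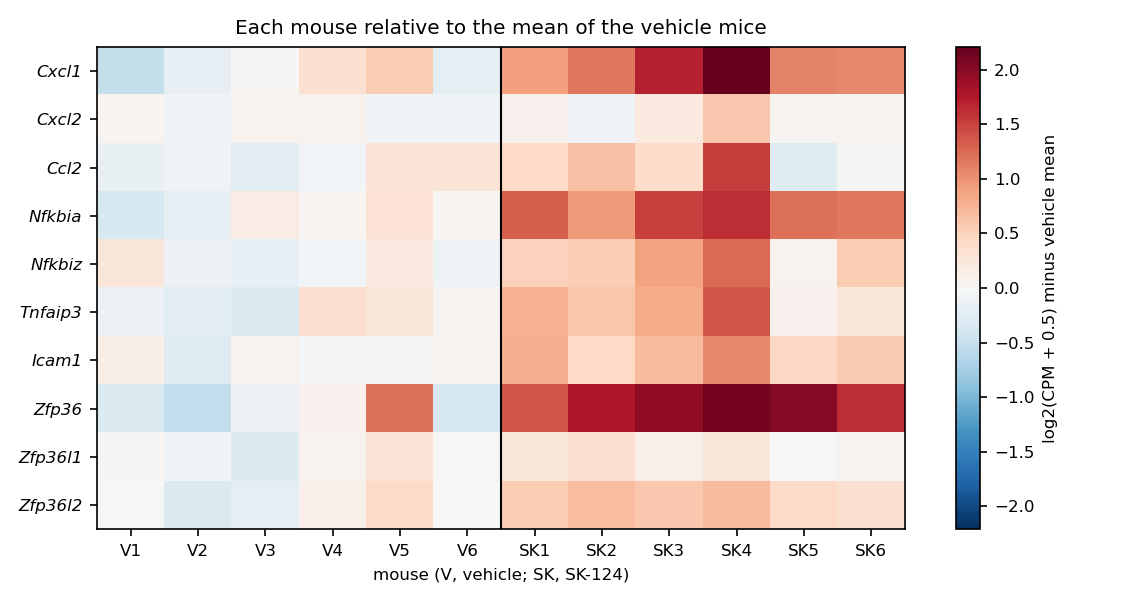
Colour gives log2(CPM + 0.5) minus the mean of the vehicle group for each gene (rows) and mouse (columns), with red for higher and blue for lower values and a line between the groups. SK-124-treated mouse 4 is the highest of its group in 9 of the 10 rows, and vehicle-treated mouse 5 is the highest of its group in 6.

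Among other immune markers, macrophage genes moved both ways: of 10 tested, *Cd14* rose (0.997), *Cx3cr1* (-2.10) and *Cd68* (-0.60) fell, and the summed level was 77.7 to 99.3 CPM with vehicle and 81.9 to 104 CPM with SK-124. Without vehicle-treated mouse 3, SK-124-treated mouse 2 or SK-124-treated mouse 4, the macrophage markers called higher were 2 rather than 1. Both tested B cell markers fell, *Cd79a* by 1.75 and *Ighm* by 2.04 on the log2 scale, and the summed level of that list was 6.32 to 9.68 CPM with vehicle and 1.303 to 3.22 CPM with SK-124. Neither tested T cell marker was called. Of 8 fibroblast and pericyte markers 2 fell (*Pdgfrb*, -0.93, and *Col1a2*, -0.45), 1 of 10 proximal tubule markers rose (*Slc27a2*, 0.18), and none of 5 red cell markers was called. Without SK-124-treated mouse 6 the fibroblast and pericyte markers called lower were 4, and without vehicle-treated mouse 3 the proximal tubule markers called higher were 2.

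Genes upstream of the feedback genes were called in both directions. For every gene list, above and below, the share over all genes tested was 10.8% called higher and 13.5% called lower. Of the 5 genes for NF-kB subunits, 3 rose and none fell (median log2 fold change 0.30): *Relb* by 0.78, *Nfkb2* by 0.55 and *Rela* by 0.24. *Relb* and *Nfkb2* encode the partners of the noncanonical pathway. Besides *Nfkbia* and *Nfkbiz*, none of the other 4 IkB genes was called, and besides *Tnfaip3* none of the other 8 tested genes for A20 partners and deubiquitinases was. Of 28 genes for the IKK complex and its adaptors, 4 rose and 5 fell (median -0.01). *Irak3*, an inhibitor of Toll-like receptor signaling, rose by 1.18 and *Birc3*, the ubiquitin ligase cIAP2, by 0.81, whereas *Card10* (-0.61) and *Traf5* (-0.49) fell. Of 14 tested genes for upstream cytokines and receptors, 4 rose and 3 fell (median 0.23). The cytokine gene *Il1b* rose by 1.76 and *Cd14*, the lipopolysaccharide co-receptor, by 0.997, and *Tlr3* (-0.57) and *Il17ra* (-0.31) fell. *Il1b* had at most 33 reads in any mouse and met the expression filter through the SK-124 group. It was at 0.190 to 0.543 CPM with vehicle (median 0.317) and 0.752 to 1.63 CPM with SK-124.

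Of 27 other chemokine genes, 12 had enough counts to be tested, of which 2 rose and 1 fell (median -0.07). *Ccl28* rose by 1.04 and *Ccl9* by 1.004, and *Cxcl12*, the ligand of CXCR4 that retains leukocytes and progenitors, fell by 0.83 on the log2 scale, and 2 fell without SK-124-treated mouse 4. *Cxcl3*, *Cxcl5* and *Ccl20* were listed at 0 in every mouse. Of 5 tested chemokine receptor genes, *Cxcr4* rose by 0.89, while *Cx3cr1*, *Ackr3* (-1.01) and *Ccr2*, the receptor of CCL2 (-1.02), fell. Among 9 tested adhesion genes, *Vcam1* (0.63) and *Itgam* (0.66), the alpha chain of Mac-1, rose beside *Icam1*, and *Itgal*, the alpha chain of LFA-1, fell (-0.62), with a median of 0.06 over the list. The call of *Itgal* (FDR = 0.0424, edgeR) was near the threshold: it was lost with DESeq2 (FDR = 0.0617) and in 7 of the 12 fits that left out 1 mouse, those without vehicle-treated mice 4, 5 or 6 or SK-124-treated mice 2, 3, 4 or 5 (FDR up to 0.0991).

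Of 23 other known NF-kB targets tested, 9 rose and 4 fell, with a median of 0.05. Over all genes tested, 10.8% were called higher and 13.5% lower. The kinase gene *Pim1* rose by 1.301 and the survival gene *Bcl2l1* by 0.64. *Tnfaip2* and the cyclin gene *Ccnd1* fell, with log2 fold changes of -0.99 and -0.94. The number of these targets called lower was 2 without vehicle-treated mice 1, 2 or 5 or SK-124-treated mice 2 or 3, each left out singly.

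**Figure D5:**
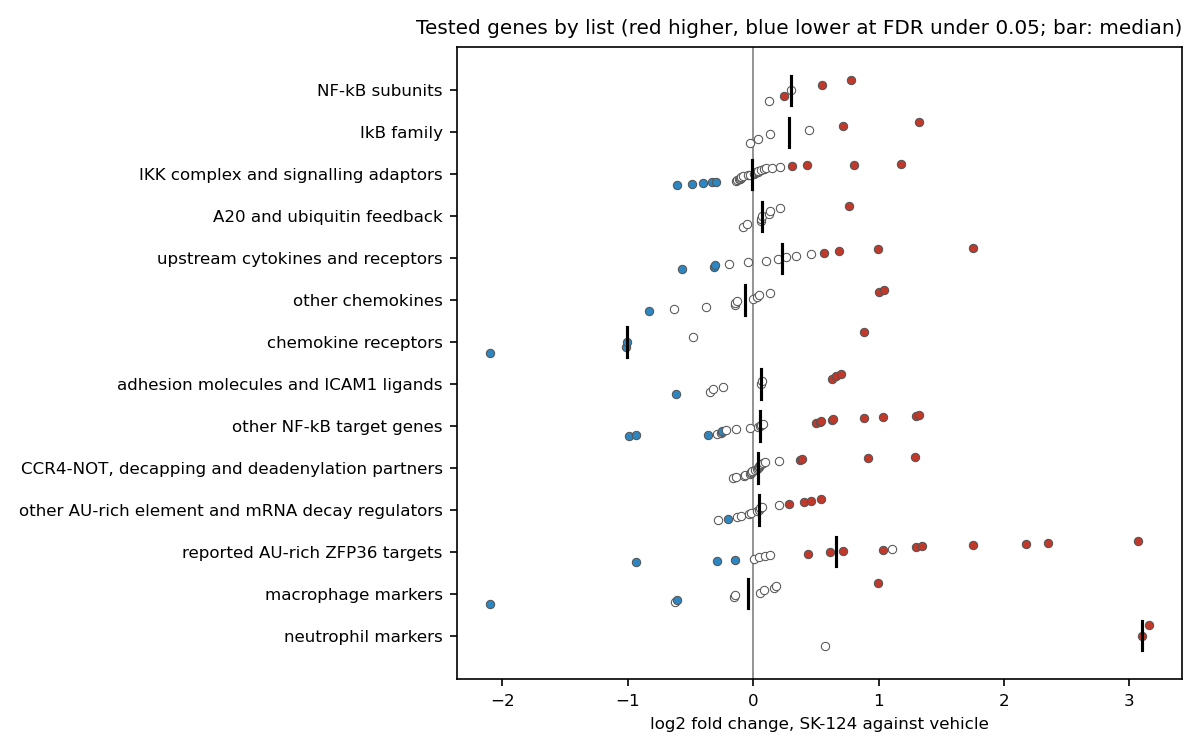
Each point is 1 tested gene of the named list, placed by its log2 fold change with SK-124 (edgeR); red points are higher and blue points lower at an FDR under 0.05, open points are not called, and the vertical bar is the median of the list. The list of AU-rich ZFP36 targets has a median of 0.66, only 3 of 10 neutrophil markers had enough counts to be drawn, and the lists of the IKK complex and of other NF-kB targets have medians of -0.01 and 0.05.

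On the decay side, of 18 tested transcripts described as AU-rich targets of ZFP36 proteins, 10 rose, 3 fell and 5 were not called, with a median log2 fold change of 0.66. *Cxcl1* and *Nfkbiz* are among those that rose, and without these and *Ccl2* 8 of 15 rose. The number that fell was 1 with vehicle-treated mouse 4 or 5 or SK-124-treated mouse 3 or 6 left out. *Plk3*, a stress-response kinase gene, rose by 3.07 and *Pim1* by 1.301, and *Ccnd1* (-0.94) and *Notch1* (-0.29) fell. The list was drawn up from background knowledge with earlier results of these data known, and it also holds immediate-early genes. Its counts are therefore a description. Of the genes tested, 12605 had a 3′ untranslated region that was searched. Among these, 10.2% of the 9132 with no heptamer, 13.7% of the 2306 with 1 copy, 15.9% of the 1167 with at least 2 and 18.1% of the 420 with at least 3 were called higher, against 13.6%, 14.9%, 13.6% and 13.3% called lower. The median log2 fold changes of these groups were -0.005, -0.004, 0.02 and 0.04. The group with at least 3 copies lies within that with at least 2, and both include genes described here. The groups were not matched for the length of the untranslated region or for expression level. A cause of the differences between them was not tested.

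The partners of ZFP36 proteins and other decay regulators are counted beside all genes tested, of which 10.8% were called higher and 13.5% lower. Of 22 genes for the CCR4-NOT complex, decapping and deadenylation, 4 rose and none fell (median 0.04), and the leading ones were *Tob2* (1.29) and *Btg1* (0.91), antiproliferative adaptors of the CCR4-NOT deadenylases. Of 15 other AU-rich element and mRNA decay regulators, 4 rose and 1 fell. *Zc3h12a*, the endonuclease Regnase-1, rose by 0.54 and *Ywhaz*, a 14-3-3 protein gene, by 0.46, and *Tia1* fell by 0.20 on the log2 scale. The call of *Tia1* (FDR = 0.0414, edgeR) was lost with DESeq2 (FDR = 0.0618) and in 7 of the 12 fits that left out 1 mouse, those without vehicle-treated mice 1, 2 or 3 or SK-124-treated mice 2, 3, 4 or 6 (FDR up to 0.0981).

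The genes whose pattern over the 12 mice lay nearest to the 3 leading members were found by the root mean square (RMS) difference of log2(CPM + 0.5) after centring each gene on its mean. For *Zfp36* they were *Dusp1* (0.257), *Btg2* (0.278) and *Adamts4* (0.311), against a median of 1.03 over all genes. *Dusp1*, a phosphatase gene for MAP kinases, was at 22.7, 27.3 and 73.2 CPM with vehicle and at 106, 158 and 213 CPM with SK-124. For *Nfkbia* the nearest were *Pim3* (0.160), *Sema6b* (0.179) and *Ppp1r15a* (0.184), the last a subunit that reverses the stress block of translation, against a median of 0.706. For *Cxcl1* they were *Ch25h* (0.246), *Stc1* (0.256) and *Nfkbia* itself (0.269), against a median of 0.811. Because the nearest were picked from all genes tested, they lie below these medians by selection. With 0.5 CPM added, the change of *Cxcl1* was 1.36, against an edgeR log2 fold change of 2.35, so its nearest genes match the smaller value.

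The transcript-weighted gene lengths in the deposited tables, which change when the balance of isoforms does, did not pass a test in any of these genes. For *Nfkbia*, *Nfkbiz*, *Tnfaip3*, *Icam1* and *Zfp36*, the 5 genes with several transcripts, enough counts and a length that varied, exact permutation tests gave p = 0.175 to 0.567 (0.400 to 0.567 after adjustment over the 5). The largest difference was in *Tnfaip3*, whose weighted length was 4244 ± 299.96 bases (SD, n = 6) with vehicle and 3887 ± 616 bases (SD, n = 6) with SK-124. *Zfp36l1* had 2990 bases in every mouse.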

How the data were processed

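Whole-kidney RNA of 12 mice was sequenced on a BGISEQ500 instrument. The submitters' processing notes name FastQC, STAR 2.7.2b, RSEM 1.3.0, DESeq2 and mm10. Per mouse, the authors deposited 1 table of unnormalized RSEM expected counts, fractional where a read fits several genes. The authors' TPM values in the same tables are scaled to effective length and library total. The transcript-weighted gene lengths that the authors deposited were used as they stand, and the FPKM column was not used. Of 55401 identifiers, 54349 matched GENCODE M21 with their version.

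Groups came from the treatment characteristic of each sample, and replicate numbers from the sample titles. Expected counts were rounded, scaled by TMM, filtered with filterByExpr and compared without a block by edgeR's quasi-likelihood test. Standard errors were derived from the F statistic, and intervals use the degrees of freedom of that test. Values of single genes and differences between genes were compared by two-sided exact permutation tests over the 924 assignments of 12 mice. Nothing says that the mice differ in litter or cage, and p-values measure only the spread between them. The lowest chi-square per degree of freedom in 30 pairs within groups was 4.41, so every library was counted once. Pairs with vehicle-treated mouse 3 had 19.2 to 24.6, against 4.41 to 8.49 in the other vehicle pairs. Pairs within the SK-124 group had 5.63 to 29.9. Methods were tested on simulated data.

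The genes and the 20 gene lists were chosen with earlier results of these data known. Named besides the 10 genes are the 2 called genes with the smallest p in each direction per list and the 3 genes with the nearest pattern. *Relb*, *Ccr2*, *Cxcr2* and *Fos* were chosen after seeing the values. The alternatives tried were a replicate block, unrounded counts, other filters on low counts, library totals, RLE normalization, DESeq2, robust dispersion, limma on TPM, SK-124-treated mice 1 to 3 or 4 to 6 alone, a fold threshold and each mouse left out. The tools were edgeR 4.0.16, DESeq2 1.42.0 and limma 3.58.1 in R 4.3.3, and scipy 1.17.1 in Python 3.11.15.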

Additional observations from a re-analysis of the deposited data

Results flagged for a closer look

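In 2 of the 20 groups examined, 1 mouse lay far from the other 5 by Dixon's ratio, past its 95% critical value, where chance gives about 1. The *Ccl2* level of SK-124-treated mouse 4 was 1.93 CPM, with a gap of 0.643 of the range of its group to the next mouse. The *Zfp36* level of vehicle-treated mouse 5 was 80.0 CPM, with a gap of 0.768 of the range.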

How the results depend on the processing

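Of 190 values recomputed for the counts of called genes and the 6 differences between genes, 179 kept their call or stayed within 1.5 times the main count and 11 counts moved beyond it, and no called direction reversed. The number of genes called higher was 777 with library totals, 500 with limma on log2(TPM + 1) and 498 with log2(TPM + 0.1), and with library totals 3058 were called lower. With those totals 20.3% of calls were higher, against 44.5% with TMM. With SK-124-treated mice 1 to 3 alone, 2298 genes were called and 1233 were lower, and with mice 4 to 6 alone 1267 were lower. A log2 fold change past 1 in addition to the FDR left 430 genes (245 higher, 185 lower) and 3 of the 10 genes described. With each mouse left out, 2960 to 3942 genes were called, 1320 to 1863 higher and 1633 to 2079 lower, and 7 to 8 of the 10 genes. The correlation of deviations between mice of the same number was -0.131 to 0.217, so the numbers do not pair the mice, and 2 of 6 correlated best with their own number. With the replicate block, 3466 genes and 7 of the 10 were called. *Cxcl1*, *Nfkbia*, *Icam1*, *Zfp36* and *Zfp36l2* were called in every setting that could test them. *Cxcl1* was not tested where at least 10 counts were required in every mouse. Its log2 fold change ranged from 0.86, with limma on log2(TPM + 1), to 2.71. With log2(TPM + 0.1) it was 1.98, so the low end goes with the larger value added to a gene of few reads. *Nfkbiz* missed the threshold with both TPM settings (FDR = 0.0652 and 0.0627, limma) and *Tnfaip3* with SK-124-treated mice 4 to 6 alone. *Cxcl2* had at most 6 reads in any mouse. Of 424 further values for single genes, 415 kept their side of the threshold, 6 passed the threshold only under the alternative and 3 lost it. The counts called within the gene lists were less steady: of 1000 recomputed, 874 stayed within 1.5 times and 126 moved beyond it, spread over 29 of the 40 counts. The requirement of a log2 fold change past 1 accounted for 22 of these, all fewer, both TPM settings for 15 and 16, SK-124-treated mice 4 to 6 alone for 12 and the fits that left out 1 mouse for 30. With DESeq2 and with no filter on low counts alike, 5 neutrophil markers were called higher against 2, 5 B cell markers lower against 2 and 3 chemokine receptors higher against 1. With at least 10 counts required in every mouse no neutrophil marker was left among the calls.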
